A study of Mus musculus with 6 samples.

Results

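The insulin-like growth factor (IGF) system of the mouse pituitary was followed through 10 genes: the ligand gene Igf1, the receptor gene Igf1r, the binding protein genes Igfbp2, Igfbp3, Igfbp4, Igfbp5, Igfbp6 and Igfbp7, and the protease genes Pappa and Pappa2. They were chosen by name, out of 50348 gene names in the tables, with earlier results of these data known. All 10 were listed in 5 of the 6 libraries. The table of the sorted Ghcre cells ended within chromosome 5, so it listed 8 of them and left Igf1r and Igfbp7 not measured there.

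IGF1 is a small peptide hormone that acts through a receptor tyrosine kinase, IGF1R, and IGF1 from blood and from the gland itself restrains growth hormone release by somatotropes. Secreted IGF binding proteins hold IGFs away from the receptor, prolong their lifetime or deliver them to the matrix. The pappalysins, encoded by Pappa and Pappa2, cut particular binding proteins and so free the IGF they carry.

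RNA came from sorted cells and from whole pituitary glands, with 1 library per group. In the sorted groups a Cre recombinase placed under a hormone gene (Tshb of thyrotropes, Gh of somatotropes, Lhb of gonadotropes) switched on a YFP reporter at the ROSA locus, and the fluorescent cells of pooled, dispersed glands were collected. The groups were Tshbcre-YFP cells of 42 adult glands, Ghcre-YFP cells of 12 adult glands, Lhbcre-YFP cells of 7 adult glands, 1 nontransgenic adult whole gland, Tshbcre-YFP cells of 5 glands at postnatal day 7 (P7), and whole tissue of 8 nontransgenic glands at P7. Adults were 7 weeks old. A Cre reporter marks every cell whose lineage once expressed the driver, so a sorted group is a lineage and can hold cells that no longer make that hormone. Sorted cells were dispersed with collagenase, and the labels give no sorting for whole glands, so sorting and cell type cannot be told apart.

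Levels are scaled FPKM, that is, fragments per kilobase of annotated transcript relative to all mapped fragments, summed over the transcripts of a gene and divided by 1 factor per library. FPKM is per length, so levels of different genes can be set side by side. Differences are log2(scaled FPKM + 1), sorted minus whole gland or adult minus P7, and folds on that scale understate the difference of low genes. Genes were counted as apart at 4-fold or more with the higher library at 1 or more. No difference was tested, because no group had a replicate. Bounds in brackets after a value are those the authors deposited for the transcript, rescaled, and cover reads within a library only.

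Relative depth ran to 2.73 in the Ghcre library, with the adult whole gland set at 1. Tshb stood at 1075 scaled FPKM in adult Tshbcre cells, against 33.1 in the adult whole gland, and at 3001 in P7 Tshbcre cells, against 61.0 in the P7 whole gland. Adult Tshbcre cells also held Lhb at 2904, against 637 in the adult whole gland, and Gh at 14806. Lhbcre cells held Lhb at 2198 and Tshb at 9.05. Gh is not listed in the Ghcre, Lhbcre or adult whole gland tables, so its level in adult Tshbcre cells has no adult value beside it. The Ghcre table held Pou1f1, a factor of the somatotrope, lactotrope and thyrotrope lineages alike, at 40.3, against 39.0 in the adult whole gland. The somatotrope markers Neurod4 and Wnt10a stood at 15.8 and 7.92 in Ghcre cells, against 5.07 and 6.87 in the adult whole gland. Xist, the X-inactivation RNA of female cells, stood at 29.4 in the Lhbcre library, 0.106 in the adult Tshbcre library and 0.0599 in the adult whole gland, and the Y-linked Ddx3y at 0.0122, 3.20 and 2.61 in the same 3 libraries. At P7, Xist stood at 62.6 in Tshbcre cells and 17.0 in the whole gland, and Ddx3y at 2.09 and 2.12. The part of sex in the Lhbcre differences, in those between the P7 libraries and in those between adult and P7 libraries was not tested.

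RefSeq's promoter table (build GRCm38.p6) held 9 of the 10 genes, and Pappa was not among them. The 150 bases just before the start of transcription are shown for Igfbp3, Igfbp4, Igfbp5 and Igfbp7, the binding protein genes on which the comparison of sorted cells with whole glands turns. Capitals mark the runs found by a search for 7 motifs, on both strands, over 250 bases before the start, and each run is named in the paragraph after the sequences.
Igfbp3, chr11:7213924-7214073, minus strand: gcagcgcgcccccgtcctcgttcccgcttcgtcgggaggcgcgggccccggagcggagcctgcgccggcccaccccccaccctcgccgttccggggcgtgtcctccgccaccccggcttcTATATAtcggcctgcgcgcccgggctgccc
Igfbp4, chr11:99041094-99041243, plus strand: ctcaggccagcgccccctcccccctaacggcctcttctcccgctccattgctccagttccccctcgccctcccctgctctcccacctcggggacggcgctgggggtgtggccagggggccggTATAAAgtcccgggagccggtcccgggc
Igfbp5, chr1:72874866-72875015, minus strand: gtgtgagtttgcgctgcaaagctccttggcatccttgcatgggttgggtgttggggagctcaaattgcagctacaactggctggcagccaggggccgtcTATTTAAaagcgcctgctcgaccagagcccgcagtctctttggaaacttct
Igfbp7, chr5:77408046-77408195, minus strand: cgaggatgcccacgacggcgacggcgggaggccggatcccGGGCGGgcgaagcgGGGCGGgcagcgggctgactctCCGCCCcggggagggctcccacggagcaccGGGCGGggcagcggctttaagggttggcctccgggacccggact

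Igfbp4 holds TATAAA, the usual TATA box, with its first base 28 bases before the start, and 12.4% of all 32851 promoter windows hold those letters. Igfbp3 holds TATATA 30 bases before the start, a run present in 5.25% of windows. Igfbp5 holds TATTTAA 51 bases before the start, present in 4.18% of windows. Igfbp7 holds none of these 3 and has the GC box GGGCGG or its complement at 4 places, the nearest 44 bases before the start, and 32.7% of windows hold it. GC content of the 150 bases was 78.7% for Igfbp3, 73.3% for Igfbp4, 55.3% for Igfbp5 and 78.0% for Igfbp7. The GC box was also in the windows of Igf1r and Igfbp2, and the TATA box letters in that of Igfbp6, 148 bases before the start. The E-box CAGCTG was found in the window of Igf1 and in 13.0% of all windows, and the GATA factor letters AGATAA in none of the genes and in 9.99% of all windows. TATNCAT, the core bound by the pituitary factor POU1F1, was also searched, and among the 9 genes with a window it was found only in that of Pappa2, 205 bases before the start, against 7.92% of all windows. A match is a run of letters and no evidence of binding.

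Igf1 transcripts were low throughout the gland. Igf1 (mm39 chromosome 10, 87694127 to 87772909) stood at 0.348 scaled FPKM in adult Tshbcre cells, 0.376 in Ghcre cells, 0.0450 in Lhbcre cells and 0.585 in the adult whole gland. It stood at 0.250 in P7 Tshbcre cells and 1.66 [1.53 to 1.78] in the P7 whole gland. The P7 whole gland was the only library above 1, and the log2 difference was -1.09 between P7 Tshbcre cells and the P7 whole gland and -0.74 between the adult and the P7 whole gland. The overlapping antisense gene Igf1os was listed at 0.0630 in the adult whole gland and at 0 elsewhere.

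Igf1r had the narrowest range of the 10 genes. Igf1r (chromosome 7, 67601486 to 67883416), the receptor tyrosine kinase for IGF1, stood at 13.5 in adult Tshbcre cells, 10.7 in Lhbcre cells and 19.8 in the adult whole gland, and at 11.0 in P7 Tshbcre cells and 14.1 in the P7 whole gland. Its highest level was 1.84-fold its lowest, and it ranked between 961 and 2185 among protein-coding genes. All 3 sorted libraries that list it were under their whole gland, by -0.52 (adult Tshbcre), -0.82 (Lhbcre) and -0.33 (P7 Tshbcre) on the log2 scale. The Lhbcre library held a further assembled transcript of 4459 nt in this gene at 9.75 [9.22 to 10.3], and with it the gene stood at 20.5 in Lhbcre cells, against 19.8 in the adult whole gland. The insulin receptor gene Insr stood lower than Igf1r in each of the 5 libraries that list both, with Igf1r to Insr ratios from 1.75 in adult Tshbcre cells to 2.52 in the P7 whole gland. With assembled transcripts added, Insr stood at 15.0 in the P7 whole gland, above Igf1r at 14.1.

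**Figure D1:**
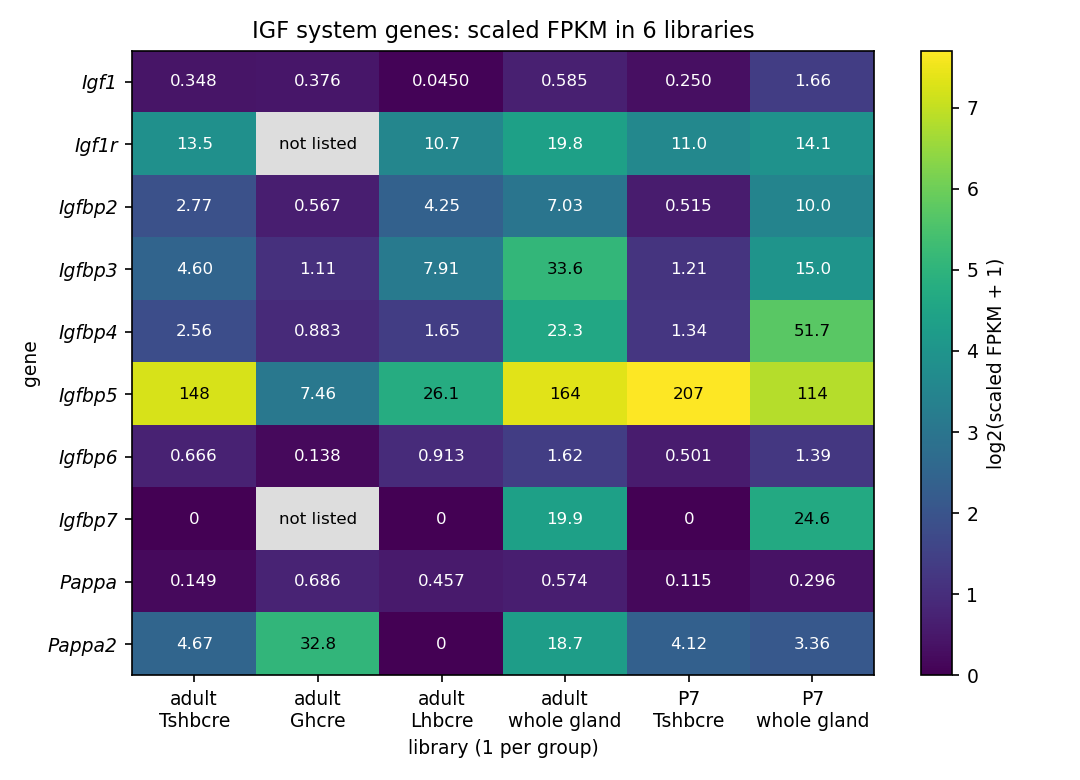
Scaled FPKM of the 10 IGF system genes (rows) in the 6 libraries (columns), printed in each cell and coloured by log2(scaled FPKM + 1). Grey cells are genes that the truncated Ghcre table does not list. Igfbp5 stands at 114 or more in 4 libraries and at 7.46 in Ghcre cells, and Igfbp7 is listed at 0 in the 3 sorted libraries that list it.

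Igfbp5 was the listed binding protein transcript with the highest level in all 6 libraries, and it separated the lineages. Igfbp5 (chromosome 1, 72897224 to 72914024) encodes a binding protein that attaches to extracellular matrix. It stood at 148 [142 to 154] in adult Tshbcre cells, 7.46 [7.23 to 7.68] in Ghcre cells, 26.1 [25.7 to 26.5] in Lhbcre cells and 164 [162 to 165] in the adult whole gland. At P7 it stood at 207 [206 to 209] in Tshbcre cells and 114 [113 to 115] in the whole gland. Both Tshbcre libraries and both whole glands lay above 100, while Lhbcre and Ghcre cells lay well under them. It ranked 26 among protein-coding genes in P7 Tshbcre cells and 41 in adult Tshbcre cells, against 2203 in Ghcre cells.

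The differences of Igfbp5 among adult lineages were large. Adult Tshbcre cells were above Ghcre cells by 4.14 on the log2 scale (17.6-fold) and above Lhbcre cells by 2.46 (5.50-fold). Lhbcre cells were above Ghcre cells by 1.68 (3.20-fold). Ghcre and Lhbcre cells stood under the adult whole gland by -4.28 (19.5-fold) and -2.60 (6.08-fold), and adult Tshbcre cells by -0.14. P7 Tshbcre cells stood above the P7 whole gland by 0.86 (1.81-fold). The size of this difference depends on the scaling: FPKM as deposited were 202 in P7 Tshbcre cells and 162 in the P7 whole gland.

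Igfbp3 and Igfbp4 were highest in the whole glands. Igfbp3 (chromosome 11, 7156086 to 7165498), which encodes the main IGF carrier of blood, stood at 4.60 [4.19 to 5.02] in adult Tshbcre cells, 1.11 [0.963 to 1.25] in Ghcre cells, 7.91 [7.42 to 8.40] in Lhbcre cells and 33.6 [31.9 to 35.3] in the adult whole gland. It stood at 1.21 [1.01 to 1.41] in P7 Tshbcre cells and 15.0 [14.2 to 15.8] in the P7 whole gland. Igfbp4 (chromosome 11, 98930820 to 98943481), whose product blocks IGF action until PAPP-A cuts it, stood at 2.56 [2.24 to 2.88] in adult Tshbcre cells, 0.883 [0.744 to 1.02] in Ghcre cells, 1.65 [1.46 to 1.85] in Lhbcre cells and 23.3 [22.0 to 24.7] in the adult whole gland. It stood at 1.34 [1.11 to 1.57] in P7 Tshbcre cells and 51.7 [49.3 to 54.1] in the P7 whole gland. Both genes were lower in every sorted library than in the whole gland of its age, and the deposited bounds did not overlap.

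The largest of these differences was that of Igfbp4 at P7, -4.49 on the log2 scale (22.5-fold) between Tshbcre cells and the whole gland. In adults it was -2.77 (6.83-fold) for Tshbcre cells, -3.69 (12.9-fold) for Ghcre cells and -3.20 (9.17-fold) for Lhbcre cells. For Igfbp3 the differences were -2.63 (6.17-fold), -4.04 (16.4-fold) and -1.96 (3.88-fold) in the same 3 adult libraries and -2.85 (7.23-fold) at P7. Lhbcre cells also held more Igfbp3 than Ghcre cells, by 2.08 (4.23-fold).

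Igfbp7 was listed at 0 in sorted cells and well above 0 in whole glands. Igfbp7 (chromosome 5, 77497087 to 77555892) encodes a secreted protein that binds IGFs weakly and is known from blood vessel walls. It was listed at 0 in adult Tshbcre cells (deposited upper bound 0.0358), in Lhbcre cells (0.0197) and in P7 Tshbcre cells (0.0371), against 19.9 [18.4 to 21.4] in the adult whole gland and 24.6 [23.1 to 26.1] in the P7 whole gland. No assembled transcript of 200 nt or more was tied to the gene in any of the 5 libraries that list it. Unnamed transcripts of any length over its span numbered 0 in adult Tshbcre, 26 in Lhbcre and 7 in P7 Tshbcre cells. The adult whole gland had 1 and the P7 whole gland 10. Those of the sorted libraries were under 200 nt and are left out. Of all unnamed transcripts, 4.25% reached 200 nt in the Lhbcre and 13.8% in the P7 Tshbcre library, against 65.8% and 52.2% in the adult and P7 whole glands. The 3 sorted libraries stood apart from both whole glands, and no fold is given against a listed 0.

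Igfbp2 and Igfbp6 were likewise higher in whole glands than in sorted cells. Igfbp2 (chromosome 1, 72863639 to 72891633), which neighbours Igfbp5, stood at 2.77 in adult Tshbcre cells, 0.567 in Ghcre cells, 4.25 in Lhbcre cells and 7.03 in the adult whole gland, and at 0.515 in P7 Tshbcre cells and 10 in the P7 whole gland. Each sorted library was under its whole gland, by -2.36 (5.12-fold) in Ghcre cells and -2.86 (7.28-fold) in P7 Tshbcre cells. P7 Tshbcre cells also held an 884-nt assembled transcript of this gene at 1.32 [0.904 to 1.73], and with it Igfbp2 stood at 1.83 there. The difference was then -1.96, under 4-fold, with an assembled transcript counted on the sorted side only. Among annotated transcripts, a 933-nt transcript led in adult Tshbcre cells (76.0% of the gene), Lhbcre cells (100%) and the adult whole gland (70.7%). A 1330-nt annotated transcript led in Ghcre cells (78.6%) and in both P7 libraries (100%). The P7 whole gland also held an assembled transcript of 923 nt at 19.2 [17.7 to 20.6] in an assembled locus shared with another named gene, which the gene's value leaves out. In both P7 libraries the shorter assembled transcript stood above the 1330-nt transcript. Igfbp6 (chromosome 15, 102052621 to 102057947), whose product prefers IGF2, stood at 0.666 in adult Tshbcre cells, 0.138 in Ghcre cells, 0.913 in Lhbcre cells and 1.62 in the adult whole gland, and at 0.501 in P7 Tshbcre cells and 1.39 in the P7 whole gland. Its sorted libraries were all under 1 and both whole glands above it.

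The makeup of the binding protein transcripts differed with lineage. Igfbp2 to Igfbp6 summed to 159 scaled FPKM in adult Tshbcre cells, 10.2 in Ghcre cells, 40.8 in Lhbcre cells and 229 in the adult whole gland, and to 211 in P7 Tshbcre cells and 192 in the P7 whole gland. Igfbp5 was 93.3% of that sum in adult Tshbcre cells and 98.3% in P7 Tshbcre cells, against 71.4% in the adult and 59.3% in the P7 whole gland. It was 73.4% in Ghcre cells and 63.9% in Lhbcre cells. Igfbp4 was 0.634% of the sum in P7 Tshbcre cells and 26.9% in the P7 whole gland, while Igfbp3 reached its highest share, 19.4%, in Lhbcre cells. The other 4 genes together stood at 10.6 in adult Tshbcre cells and 3.57 in P7 Tshbcre cells, against 65.6 and 78.1 in the whole glands of the same ages.

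**Figure D2:**
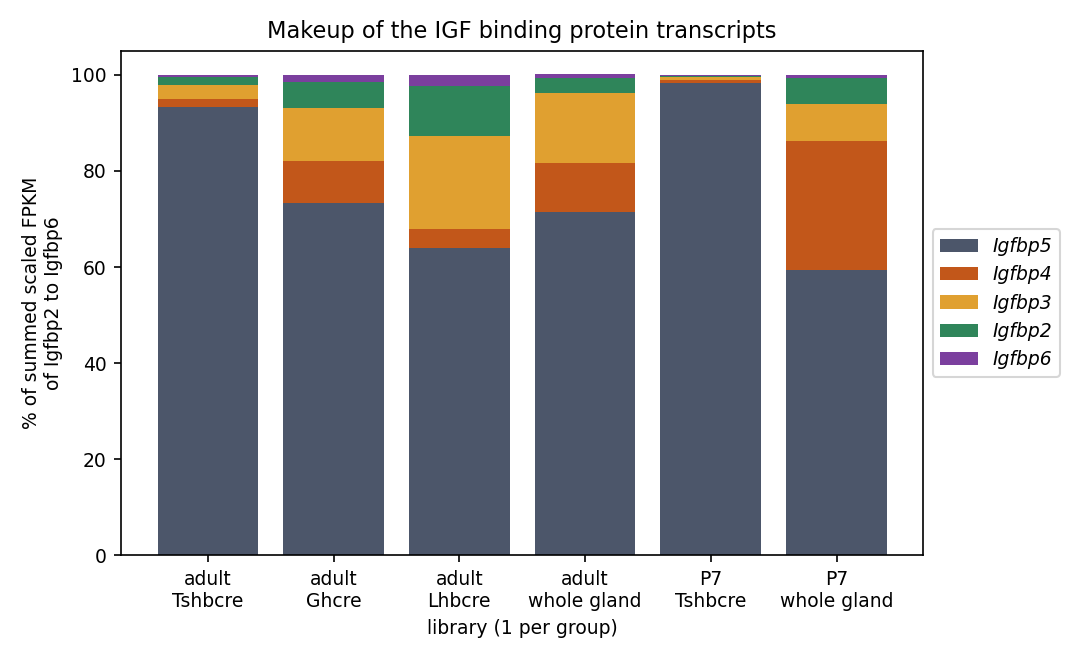
Stacked bars give each gene's percent of the summed scaled FPKM of Igfbp2 to Igfbp6 in the 6 libraries. Igfbp5 takes 93.3% and 98.3% in adult and P7 Tshbcre cells, and 59.3% in the P7 whole gland, where Igfbp4 takes 26.9%.

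Pappa2 was highest in Ghcre cells. Pappa2 (chromosome 1, 158539297 to 158788019) encodes the pappalysin that cuts IGFBP3 and IGFBP5. It stood at 4.67 in adult Tshbcre cells, 32.8 in Ghcre cells and 18.7 in the adult whole gland, was listed at 0 in Lhbcre cells, and stood at 4.12 in P7 Tshbcre cells and 3.36 in the P7 whole gland. Adult Tshbcre cells were under Ghcre cells by -2.58 (5.96-fold), and the gene ranked 248 among protein-coding genes in Ghcre cells. Ghcre cells stood above the adult whole gland by 0.78 (1.72-fold) and adult Tshbcre cells under it by -1.80 (3.47-fold).

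The 0 of Pappa2 in Lhbcre cells covered its annotated transcripts only. The same library held 2 assembled transcripts in the gene, of 8963 nt at 4.90 [4.65 to 5.16] and of 4608 nt at 2.59 [2.36 to 2.81]. With assembled transcripts added, Pappa2 stood at 7.49 in Lhbcre cells, 4.67 in adult Tshbcre cells, 32.8 in Ghcre cells and 22.9 in the adult whole gland, so that the Lhbcre level lay above the Tshbcre level. Pappa (chromosome 4, 65042411 to 65275746), whose product cuts IGFBP4, stayed under 1 in all 6 libraries, from 0.115 in P7 Tshbcre cells to 0.686 in Ghcre cells. With assembled transcripts added it stood at 2.02 in Ghcre cells, against 1.23 in the adult whole gland. The Pappa2 level was 47.8 times that of Pappa in Ghcre cells and 11.4 times in the P7 whole gland, its lowest ratio among the 5 libraries with annotated Pappa2 above 0.

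**Figure D3:**
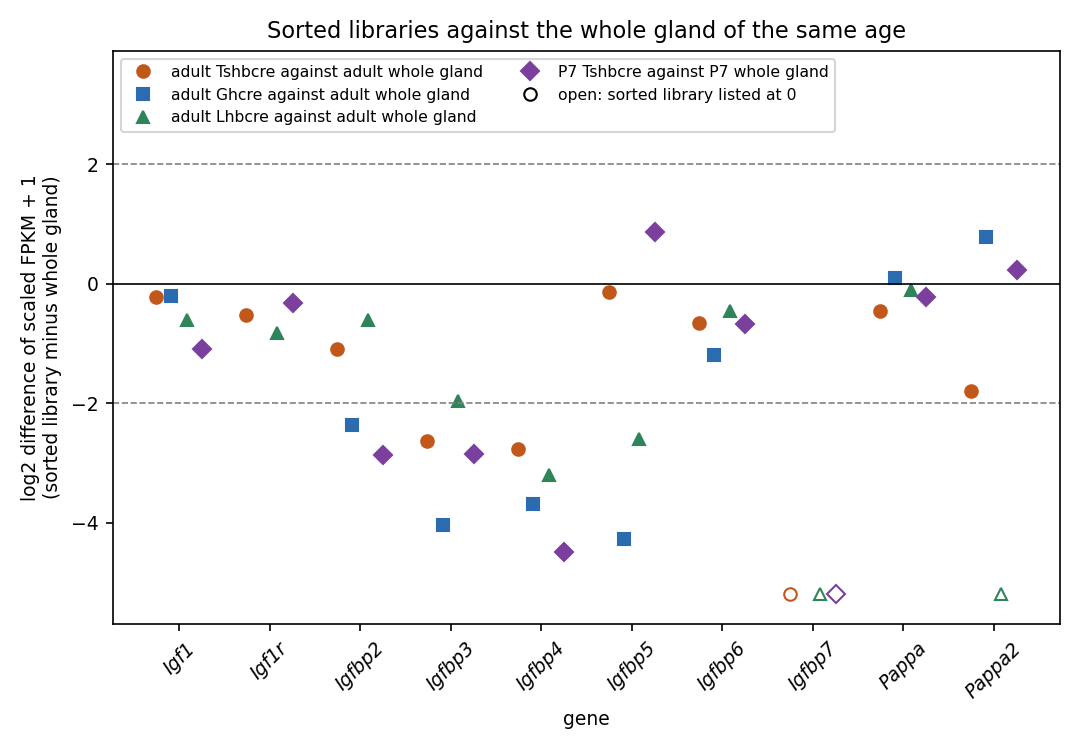
Log2 differences of scaled FPKM + 1 for each gene between a sorted library and the whole gland of its age. Dashed lines mark 4-fold, and open symbols at the bottom are genes listed at 0 in the sorted library, placed there without a value. Igfbp3 and Igfbp4 lie under 0 in all 4 comparisons, and Igfbp5 runs from -4.28 (Ghcre) to 0.86 (P7 Tshbcre).

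Counted over the 10 genes, every 4-fold difference of sorted cells from whole glands was in the lower direction with the scaling used here. With libraries set to an equal sum, Pappa2 was 4-fold higher in Ghcre cells (2.15). Between adult Tshbcre cells and the adult whole gland, 3 of the 8 genes at 1 or more were at least 4-fold lower (Igfbp3, Igfbp4 and Igfbp7) and none higher, where 3.84% of all 15797 genes were lower and 7.06% apart in either direction. Between Ghcre cells and the adult whole gland, 4 of 6 were lower (Igfbp2, Igfbp3, Igfbp4 and Igfbp5), where 5.36% of 11286 genes were lower and 9.80% apart. Between Lhbcre cells and the adult whole gland, 4 of 8 were lower (Igfbp4, Igfbp5, Igfbp7 and Pappa2), where 5.46% of 16452 genes were lower and 9.31% apart. Between P7 Tshbcre cells and the P7 whole gland, 4 of 9 were lower (Igfbp2, Igfbp3, Igfbp4 and Igfbp7), where 6.11% of 16370 genes were lower and 9.38% apart. These comparisons share the adult whole gland, so the 3 adult counts are not separate evidence.

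The medians over the same genes were -1.44 for adult Tshbcre, -3.02 for Ghcre, -2.28 for Lhbcre and -1.09 for P7 Tshbcre cells, against medians of all genes between -0.0176 and 0.00437. Over genes above 0 in both libraries, 2 of 7 were lower in adult Tshbcre cells (0.803% of all such genes), 4 of 6 in Ghcre cells (1.95%), 2 of 6 in Lhbcre cells (1.30%) and 3 of 8 in P7 Tshbcre cells (2.21%). Their medians were -1.09, -3.02, -1.39 and -0.880 in the same order. Of the genes named, Igfbp7 in 3 comparisons and Pappa2 in Lhbcre cells were listed at 0, and Pappa2 with assembled transcripts added was -1.49 and no longer 4-fold lower. With a pseudocount of 5, Igfbp4 in adult Tshbcre cells (-1.91), Igfbp2 in Ghcre cells (-1.11) and Igfbp2 (-1.45) and Igfbp3 (-1.69) in P7 Tshbcre cells were no longer 4-fold lower. Igfbp3 in Lhbcre cells was -2.14 on FPKM as deposited, past 4-fold. Pappa2 in adult Tshbcre cells was -2.07 with assembled transcripts added, also past 4-fold.

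Markers of other cell types stood lower in the sorted libraries beside Igfbp3, Igfbp4 and Igfbp7. In bulk RNA, fewer cells of a type and less RNA per cell cannot be told apart. The 8 endothelial markers summed to 14.1% of the adult whole gland in adult Tshbcre cells, 5.62% in Ghcre cells (over the 3 listed) and 29.6% in Lhbcre cells, and to 5.17% of the P7 whole gland in P7 Tshbcre cells. The 10 mesenchymal and pericyte markers summed to 21.2%, 7.60% (over the 7 listed), 21.0% and 4.60% in the same order, and over the 7 listed in every library to 21.7%, 7.60%, 8.09% and 2.89%. Col1a2 made up most of the Lhbcre sum, at 23.2 of 30.4 scaled FPKM. Igfbp4 stood at 11.0%, 3.78%, 7.09% and 2.59% of its whole gland in the same order, and Igfbp3 at 13.7%, 3.30%, 23.6% and 8.08%. Kdr in P7 Tshbcre cells, Col3a1 in Ghcre cells and Lum in Lhbcre cells were at 0, while Plvap was still at 8.09 in adult Tshbcre cells and 16.2 in Lhbcre cells, against 63.1 in the adult whole gland. The part of these cells in the binding protein differences was not tested.

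As a percent of the whole gland of the same age, Igfbp5 stood above those marker sums in Tshbcre cells. It stood at 90.5% of the whole gland in adult and 182% in P7 Tshbcre cells, where the endothelial sums were 14.1% and 5.17%. In Ghcre and Lhbcre cells it stood at 4.56% and 15.9%, where the endothelial sums were 5.62% and 29.6%. Stem and folliculostellate markers summed to 60.0% of the adult whole gland in adult Tshbcre cells and to 7.11% of the P7 whole gland in P7 Tshbcre cells. In the same order, immune markers summed to 62.4% and 10.9%, thyrotrope markers to 880.5% and 1499%, and gonadotrope markers to 629% and 954%. Cga is on both hormone cell lists and made up 9593 of the 11508 scaled FPKM of the gonadotrope sum in P7 Tshbcre cells. Of the 7 gonadotrope markers, 4 were higher there than in the P7 whole gland and 3 lower, with Nr5a1 and Foxl2 at 0. The part of any of these cells in the Igfbp5 levels was not tested. Igf1r stood between 54.3% and 78.0% of its whole gland in the sorted libraries.

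**Figure D4:**
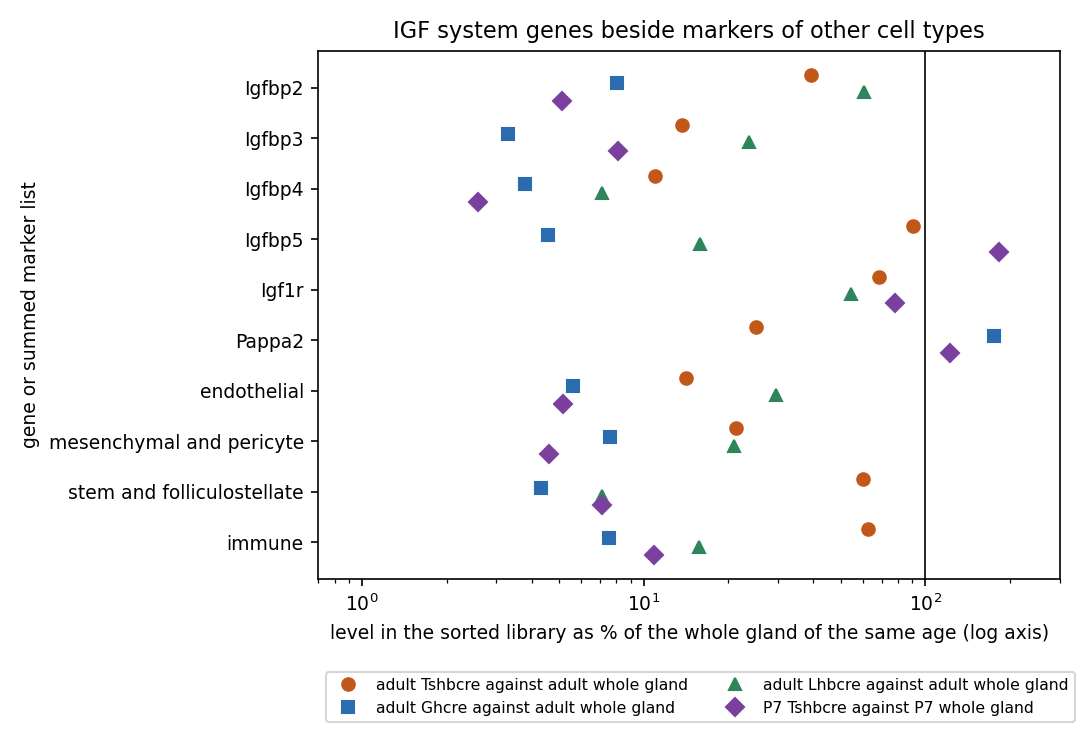
Levels in each sorted library as a percent of the whole gland of its age (log axis) for 6 IGF system genes and 4 summed marker lists; the vertical line marks 100%. Values at 0 and genes not listed are not drawn. Igfbp5 lies at 90.5% and 182% in the Tshbcre libraries, where endothelial markers lie at 14.1% and 5.17%.

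Between ages, Pappa2 was the gene that differed most in whole glands. It stood at 18.7 in the adult and 3.36 in the P7 whole gland, a difference of 2.18 (4.52-fold), and was the 1 gene of 9 at least 4-fold apart, where 3.28% of 15690 genes were higher and 6.59% apart. This call was close to the threshold: the difference was 1.91 on FPKM as deposited. Igfbp3 was higher in the adult whole gland by 1.11 (2.16-fold) and Igfbp4 lower by -1.11 (2.17-fold), so that the 2 whole glands had opposite orders of these genes. Igfbp5 and Igf1r were higher in the adult whole gland by 0.52 and 0.45, and Igfbp7 and Igfbp2 lower by -0.30 and -0.46. The Igfbp2 value leaves out the 923-nt assembled transcript of the P7 whole gland, at 19.2, so its difference may be understated.

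Within the Tshbcre lineage, Igfbp2 and Igfbp3 differed most between ages. None of 6 genes at 1 or more was 4-fold apart between adult and P7 Tshbcre cells, where 8.21% of 16029 genes were. Igfbp3 stood at 4.60 in adult and 1.21 in P7 Tshbcre cells (1.34 on the log2 scale), and Igfbp2 at 2.77 and 0.515 (1.31, or 0.41 with assembled transcripts added). Igfbp5 stood at 148 in adult and 207 in P7 Tshbcre cells (-0.48), and Pappa2 at 4.67 and 4.12. Endothelial markers summed to 18.3 in adult and 5.73 in P7 Tshbcre cells and stem and folliculostellate markers to 83.5 and 6.72, beside the Igfbp2 and Igfbp3 differences, and their part was not tested.

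Between adult lineages, the 4-fold differences were those of Igfbp5, Pappa2 and Igfbp3. Adult Tshbcre against Lhbcre cells gave 2 higher of 6 genes (Igfbp5, and Pappa2 listed at 0 in Lhbcre cells), where 4.97% of 16310 genes were higher and 9.30% apart. Adult Tshbcre against Ghcre cells gave 1 higher (Igfbp5) and 1 lower (Pappa2) of 5 genes, where 5.24% of 11207 genes were higher, 5.13% lower and 10.4% apart. Lhbcre against Ghcre cells gave 1 higher (Igfbp3) and 1 lower (Pappa2, listed at 0 in Lhbcre cells) of 5 genes, where 4.20% of 11298 genes were higher, 5.23% lower and 9.44% apart. With assembled transcripts added the Pappa2 difference was -0.58 between adult Tshbcre and Lhbcre cells, turned in direction, and -1.99 between Lhbcre and Ghcre cells, no longer 4-fold. Igfbp3 between Lhbcre and Ghcre cells was 1.5 with libraries set to an equal sum, and Pappa2 between adult Tshbcre and Ghcre cells -1.97 with a pseudocount of 5.

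The wider pathway was described over 40 other genes of IGF and insulin signalling, 28 of them listed in the Ghcre table. Between adult Tshbcre cells and the adult whole gland none of the 30 genes at 1 or more was 4-fold apart, where 7.06% of all genes were. Between Ghcre cells and the adult whole gland 1 of 19 was higher and 1 lower (9.80% of all genes apart). Between Lhbcre cells and the adult whole gland 1 of 30 was higher and 1 lower (9.31%), and between P7 Tshbcre cells and the P7 whole gland 1 of 32 was higher and 3 lower (9.38%). Medians were -0.648, -0.348, -0.318 and -0.651 in the same order. Between the whole glands 1 of 31 was 4-fold apart (6.59% of all genes), between the Tshbcre libraries 1 of 27 (8.21%) and between adult Tshbcre and Ghcre cells 1 of 19 (10.4%). No gene was apart among 27 between adult Tshbcre and Lhbcre cells (9.30%), and none among 20 between Lhbcre and Ghcre cells (9.44%). These shares lay at or under those of all genes, except in Ghcre cells and P7 Tshbcre cells against whole glands, where they were slightly above.

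Among ligands and their carriers, Igf2, the growth factor of fetal life, stood at 0.872 in P7 Tshbcre cells and 13.3 in the P7 whole gland (-2.94), and at 1.57 in the adult whole gland, -2.48 against the P7 whole gland. With assembled transcripts added Igf2 stood at 1.59 in P7 Tshbcre cells and 24.8 in the P7 whole gland. Ins1 and Ins2 were at 0 or under 0.05 in every library that lists them. Igf2r, which clears IGF2, stood at 1.81 in adult Tshbcre cells, 6.0 in Ghcre cells, 9.22 in Lhbcre cells and 5.58 in the adult whole gland, and at 4.80 in P7 Tshbcre cells and 6.14 in the P7 whole gland. With assembled transcripts added Igf2r stood at 6.68 in adult Tshbcre cells, 8.77 in Ghcre cells, 9.22 in Lhbcre cells and 7.82 in the adult whole gland. Igfbp1 was under 1 in every library, at most 0.883 in Lhbcre cells, and Igfals, which joins IGFBP3 and IGF in blood, was at most 0.126. Ghr, the growth hormone receptor, stood at 2.94 in adult Tshbcre cells, 0.814 in Ghcre cells, 1.40 in Lhbcre cells and 1.75 in the adult whole gland, and at 3.71 in P7 Tshbcre cells and 5.88 in the P7 whole gland.

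Among the factors that act on binding proteins, Htra1, a serine protease that cuts IGFBP5, stood at 0.226 in Lhbcre cells and 4.09 in the adult whole gland (-2.05). It stood at 0.573 in adult Tshbcre cells (-1.69), and at 0.907 in P7 Tshbcre cells, against 6.58 in the P7 whole gland (-1.99). The secreted metalloproteinase Adamts1 stood at 0.341 in P7 Tshbcre cells and 9.16 in the P7 whole gland (-2.92). In adults it stood at 0.539 in Tshbcre, 0.258 in Ghcre and 1.13 in Lhbcre cells, against 1.84 in the whole gland. Stc2, an inhibitor of the pappalysins, lay between 0.224 in Ghcre cells and 1.68 in P7 Tshbcre cells, and Stc1 reached 1.08 in the P7 whole gland. In Ghcre cells both Stc2 and Stc1 (0.151) were under 1, and Stc1 was lowest in P7 Tshbcre cells, at 0.0767.

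Irs4 was the pathway gene with the highest level in both Tshbcre libraries. This adaptor of insulin and IGF receptors stood at 26.5 in adult Tshbcre cells, 6.95 in Lhbcre cells and 11.0 in the adult whole gland, and at 128 in P7 Tshbcre cells and 18.2 in the P7 whole gland. P7 Tshbcre cells were above the P7 whole gland by 2.74 (6.70-fold), and adult were under P7 Tshbcre cells by -2.22 (4.67-fold). The related adaptor Irs2 stood at 11.0 and 11.2 in adult and P7 Tshbcre cells, against 21.4 and 19.6 in the whole glands of those ages, and Irs1 lay between 1.14 and 4.11. Grb10, an imprinted inhibitor of both receptors, stood at 1.49 in P7 Tshbcre cells and 11.0 in the P7 whole gland (-2.27), and was listed at 0 in adult Tshbcre cells, against 3.32 in Ghcre cells. With assembled transcripts added Grb10 stood at 4.98 in P7 Tshbcre cells and 14.8 in the P7 whole gland, no longer 4-fold apart, and at 3.05 in adult Tshbcre cells, against 11.6 in Ghcre cells.

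Stat5a, a transcription factor downstream of growth hormone and prolactin receptors, stood at 9.93 in Ghcre cells and 9.69 in Lhbcre cells, against 1.21 in the adult whole gland (2.31 and 2.27). With assembled transcripts added the adult whole gland stood at 6.31, and neither difference was then 4-fold. Foxo1, a factor restrained by IGF signalling through AKT, stood at 1.46 in Ghcre cells and 10.5 in the adult whole gland (-2.22), and at 11.2 in Ghcre cells with assembled transcripts added.

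**Figure D5:**
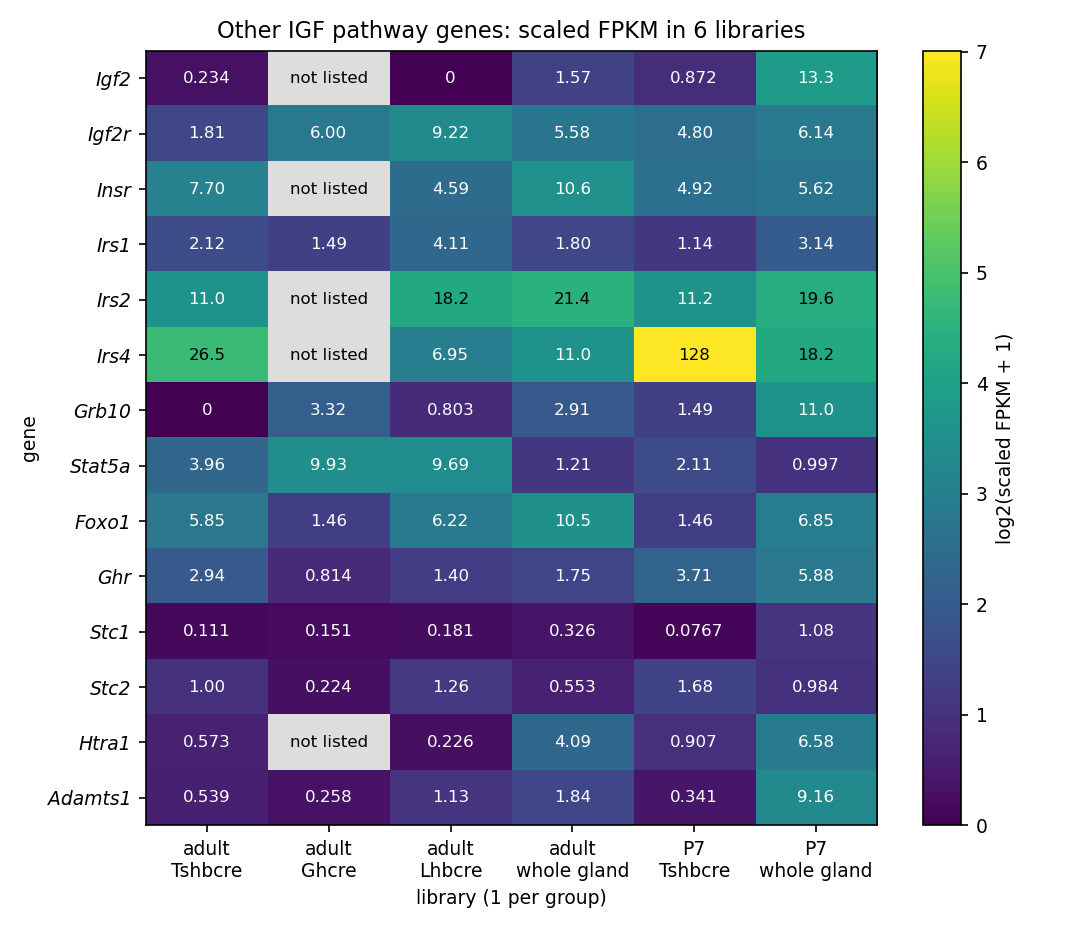
Scaled FPKM of 14 other IGF pathway genes (rows) in the 6 libraries (columns), printed in each cell and coloured by log2(scaled FPKM + 1); grey cells are not listed. Irs4 reaches 128 in P7 Tshbcre cells, and Igf2, Grb10 and Adamts1 are highest in the P7 whole gland.

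Genes with the most similar profile were sought by the root mean square of the log2 differences after centring, over 5208 candidate genes in 6 libraries or 7536 in the 5 libraries that list Igf1r and Igfbp7. Nearest to Igfbp4 were Nid1 (0.261), Col1a1 (0.414) and Hspg2 (0.429), which encode nidogen, collagen and perlecan of the extracellular matrix. Nearest to Igfbp3 were S100a16 (0.349), Ptpru (0.375) and Eng (0.405), the last an endothelial co-receptor. Nearest to Igfbp5 was Sdc4 (0.438), a cell-surface heparan sulfate proteoglycan, at 25.6 in adult Tshbcre cells, 1.09 in Ghcre cells, 6.61 in Lhbcre cells, 17.7 in the adult whole gland, 29.7 in P7 Tshbcre cells and 19.3 in the P7 whole gland. Nearest to Igfbp7 was Igfbp4 (0.532), followed by the alpha globin genes Hba-a1 (0.565) and Hba-a2 (0.570), near-identical copies whose reads cannot be told apart. Nearest to Igfbp2 was Cpne1 (0.106), to Igf1r Ubxn10 (0.0389) and to Pappa2 Srxn1 (0.695), and Igf1, Igfbp6 and Pappa were too low to be matched.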

How the data were processed

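RNA of 6 mouse pituitary libraries, 1 per group, was sequenced after depletion of ribosomal RNA. The submitters' processing notes name FastQC, Bowtie2 and Cufflinks and give mm39 as the genome build, with no versions. The deposited tables list FPKM per transcript with the bounds of its interval, as the authors computed them, and a coverage signal that was used here only for relative depth. Per the file headers these are Cufflinks isoform tables. They hold transcripts with RefSeq names and unnamed transcripts assembled in each library, and no source used here says whether strand was used, so overlapping genes cannot be told apart.

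FPKM of the annotated transcripts of a gene name was summed and divided by a median-of-ratios factor over 5808 genes at 1 or more in all 6 libraries: 1.0 (adult Tshbcre), 0.758 (Ghcre), 0.967 (Lhbcre), 1.10 (adult whole gland), 0.976 (P7 Tshbcre) and 1.42 (P7 whole gland). The Ghcre table listed 32923 gene names, against 49846 or more in the others, and members missing from it have no value there. Differences used a pseudocount of 1, with no p-value. All 10 genes are named, and pathway genes are named where they were 4-fold apart or were picked for their role. Genes and lists were chosen with earlier results of these data known. The procedure was tested on simulated data. Alternatives were other scalings, pseudocounts of 0.1 and 5, a 2-fold threshold, no filter on low values, status OK or curated transcripts only, genes above 0 in both libraries, and assembled transcripts of 200 nt or more added. Coordinates of genes are mm39 from the files, and promoter sequences are RefSeq's on GRCm38.p6. Python 3.11.15, pandas 2.3.3, numpy 2.4.6 and matplotlib 3.10.9 were used.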

Additional observations from a re-analysis of the deposited data

Results flagged for a closer look

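Several genes differed between adult and P7 in opposite directions in Tshbcre cells and in whole glands. These differences between contrasts were not tested, since each group is 1 library. The adult minus P7 log2 difference of Igf1 was 0.11 in Tshbcre cells and -0.74 in whole glands. That of Igfbp2 was 1.31 in Tshbcre cells and -0.46 in whole glands, leaving out the assembled transcript of the P7 whole gland at 19.2. That of Igfbp4 was 0.61 in Tshbcre cells and -1.11 in whole glands. That of Igfbp5 was -0.48 in Tshbcre cells and 0.52 in whole glands. In the same values, Tshbcre cells minus whole gland for Igfbp5 was -0.14 in adults and 0.86 at P7. For Pappa2, Tshbcre cells minus whole gland was -1.80 in adults and 0.23 at P7, and the P7 value was -0.20 on FPKM as deposited.

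Assembled transcripts, which the levels leave out, stood at 1 or more in a sorted library and above the whole gland of the same age in 3 cases. Those of Igf1r stood at 9.75 scaled FPKM in Lhbcre cells, against none in the adult whole gland. Those of Pappa stood at 1.34 in Ghcre cells, against 0.660 in the adult whole gland. Those of Pappa2 stood at 7.49 in Lhbcre cells, against 4.14 in the adult whole gland.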

How the results depend on the processing

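No paired analysis was possible because each group is 1 library, and for the same reason no replicate could be left out. Of 192 recomputed differences of the 10 genes that were at least 4-fold in the values reported, 176 were still 4-fold in the same direction, and 1 turned: Pappa2 in adult Tshbcre against Lhbcre cells was -0.58 with assembled transcripts added. Part of the 176 was fixed in advance. Dropping the filter on low values, status OK transcripts only and genes above 0 in both libraries could not change a 4-fold call they kept. Counts of the 10 genes apart moved as follows. Tshbcre against whole gland in adults had 3 genes and 5 at 2-fold. Lhbcre against whole gland had 4, and 2 over genes above 0 in both libraries. P7 Tshbcre against P7 whole gland had 4, and 2 with a pseudocount of 5. Adult against P7 whole gland had 1, and 0 on FPKM as deposited, with libraries set to an equal sum and with a pseudocount of 5, and 3 at 2-fold. Adult against P7 Tshbcre had 0, and 1 with a pseudocount of 0.1 and 2 at 2-fold. Tshbcre against Lhbcre had 2, and 1 with a pseudocount of 5, over genes above 0 in both and with assembled transcripts added. Tshbcre against Ghcre had 2, and 1 with a pseudocount of 5 and 4 at 2-fold. Lhbcre against Ghcre had 2, and 1 with an equal sum, a pseudocount of 5, genes above 0 in both or assembled transcripts added, and 4 at 2-fold.

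Scaling moved Ghcre comparisons most: against the adult whole gland the median of all genes was -0.45 on FPKM as deposited and 1.07 with an equal sum, and 35.4% and 79.2% of the genes apart were higher, against 45.3% as reported. With an equal sum Pappa2 was then 2.15, past 4-fold higher, and Igfbp2 -1.56, no longer 4-fold lower, in that comparison. Of 84 differences of the 10 genes, 11 turned in sign under another scaling, all of them under 4-fold as reported. Depth limits the genes under 1 scaled FPKM, Igf1, Igfbp6 and Pappa above all.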
